A study of Rattus norvegicus with 24 samples.

Results

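The cytosolic ribosomal protein genes encode the proteins of the ribosomes that translate messengers of the nuclear genome. Members were chosen by symbol from probe sets carrying exactly 1 gene symbol: Rpl or Rps followed by a number, and Rplp0, Rplp1, Rplp2 and Rpsa, without kinase, pseudogene or -like names. The choice gave 69 genes of the 14506 distinct symbols on the array, 42 of the large and 27 of the small subunit. Each gene was read by its probe set with the highest mean over all 24 arrays. These rules use no difference between groups, but the members were chosen with earlier results of these data known.

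Male Fischer rats, about 8 weeks old at the start, were held in tubes that exposed the nose alone and breathed formaldehyde at 2 ppm, 6 hours daily, for 7 or 28 days, while controls breathed room air in tubes for the same time. The gas was vaporised from [13CD2]-paraformaldehyde. Messenger RNA was measured on Affymetrix arrays in tissue of the maxilloturbinate, labelled as nasal epithelial cells, and in circulating white blood cells isolated from heparinised whole blood with cell preparation tubes. The 8 groups were exposed and control nose and blood at each day, each of 3 arrays, few enough to limit the precision of every value below.

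Whether the arrays of 1 group came from separate animals is not stated in the labels, and p-values therefore measure only the spread between these samples, which may be technical. Values are log2 of the intensity the authors deposited, differences are on the log2 scale with the standard error from limma, and a member was called where its two-sided adjusted p over all probe sets tested was under 0.05. Array medians were 8.25 to 8.28 in nose at 7 days, 7.35 to 7.42 in nose at 28 days, 7.45 to 7.50 in blood at 7 days and 6.82 to 6.90 in blood at 28 days, so levels of the days and tissues lie on different scales. Markers fitted the tissue labels: 6 of 7 respiratory epithelial genes tested were higher in unexposed nose than in blood at either day, and 12 of 12 T cell genes were lower. Of the 14 and 16 genes measured in these lists, those too dim in either tissue to pass the filter on dim probe sets were not tested. In bulk samples such as these, fewer cells of a type and less RNA per cell cannot be told apart.

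A ribosome has a small subunit, which holds the messenger and reads its codons, and a large subunit, which joins amino acids and releases the growing chain through its exit tunnel. The messengers of nearly all ribosomal proteins begin with a C followed by an unbroken run of pyrimidines, the terminal oligopyrimidine tract, through which mTORC1 and LARP1 set their translation together. In the nose, rapidly renewing epithelium and secretory glands are heavy users of ribosomes, and among blood cells red cell precursors and activated lymphocytes are.

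The tract was looked for in the RefSeq promoter windows of the GRCr8 build, which held 59 of the 69 members. A C followed by at least 6 C or T on the gene's strand, within 25 bases of the annotated start, was present in 48 of 59 members (81.4%), in 13 of 54 mitochondrial ribosomal protein genes (24.1%) and in 21.9% of all 33365 promoters. The letters CCGGAAG, a core of sites bound by ETS factors, were present on either strand of the 300 base window in 18 members (30.5%), in 18 mitochondrial ribosomal protein genes (33.3%) and in 8.77% of all promoters. TATAAA in the 250 bases before the start was present in 6 members (10.2%), in 4 mitochondrial ribosomal protein genes (7.41%) and in 8.06% of all promoters. The 7 members whose response to exposure passed a test below are shown from 25 bases before to 25 bases after the start, so that the start sites of members with unlike responses can be set side by side. Capitals mark the longest tract.
Rpl36a: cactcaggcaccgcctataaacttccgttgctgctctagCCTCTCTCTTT (chrX:102059424-102059473, forward strand)
Rpl6: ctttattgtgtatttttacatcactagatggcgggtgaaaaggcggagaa (chr12:41011666-41011715, reverse strand)
Rpl9: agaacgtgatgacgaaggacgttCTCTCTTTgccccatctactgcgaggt (chr14:43247565-43247614, forward strand)
Rps14: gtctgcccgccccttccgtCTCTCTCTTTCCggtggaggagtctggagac (chr18:56498235-56498284, forward strand)
Rps26: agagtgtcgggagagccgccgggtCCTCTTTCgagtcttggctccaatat (chr7:1643380-1643429, reverse strand)
Rps28: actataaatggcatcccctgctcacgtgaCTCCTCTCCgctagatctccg (chr7:15311309-15311358, reverse strand)
Rps4y2: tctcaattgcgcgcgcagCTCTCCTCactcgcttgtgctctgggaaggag (chr4:183000888-183000937, forward strand)
Of these 7 windows, 6 held a tract and that of Rpl6 held none. In the Rpl6 window an ATG lies just after the annotated start, and the starts used in these tissues were not measured. A window without a tract therefore does not show that the messenger lacks one. Differences with exposure were given for members with and without the tract side by side. In nose at 7 days the median was -0.18 over 47 members with a tract and -0.16 over 11 without. In blood at 7 days it was 0.13 over 48 members with a tract and 0.02 over 11 without. At 28 days the medians with and without a tract were -0.03 and -0.01 in nose and -0.11 and -0.09 in blood.

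Every member tested in nose lay lower after 7 days of formaldehyde. Of the 69 members 68 were above the filter on dim probe sets in nose (Rps27 was not), and 68 of 68 had a difference below 0, with a median of -0.16 and a largest of -0.49. Over all probe sets tested 60.4% were below 0 with a median of -0.05. The test called 1 of the 68 members, lower, against 7.84% of all probe sets called lower, 8.43% called higher and 16.3% called in either direction, and 48 of the 68 differences were under 0.2 in size. Fitted on the 6 arrays of this comparison alone, 12 members (17.6%) passed, all lower, where 16% of all probe sets were lower.

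The mean of the 69 members on each array was 11.78, 11.75 and 11.71 in control nose and 11.49, 11.61 and 11.63 in exposed nose. All 3 exposed arrays lay below all 3 control arrays, with group means of 11.75 ± 0.03 (SD, n = 3) and 11.58 ± 0.08. Gene by gene, the exposed arrays lay below the controls without overlap in 55 of 68 members (80.9%), while 32.4% of all probe sets did so. They lay above in 0 members, against 20.8% of all probe sets. Probe sets outside the family that were as bright as the brighter members, at or above 10.54 in nose, numbered 1713, and 60.1% of them were below 0 with a median of -0.05. The 52 members in that range were all below 0 with a median of -0.16.

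**Figure D1:**
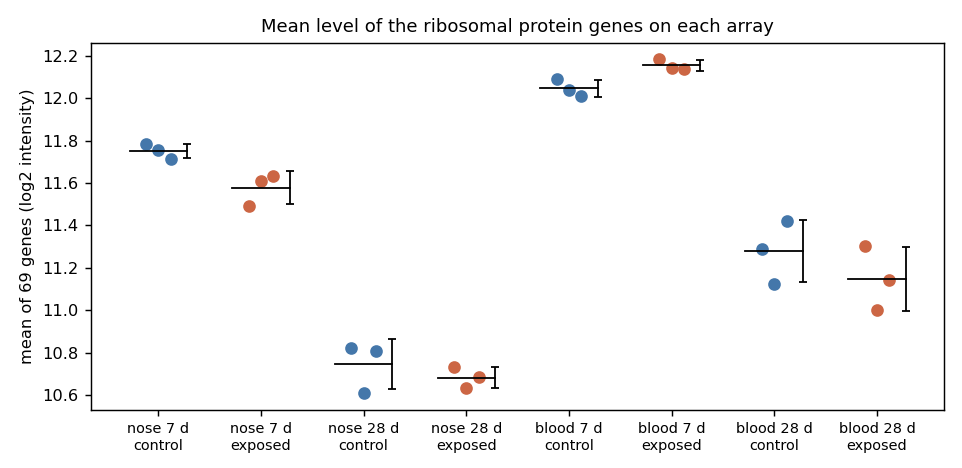
Mean log2 intensity of the 69 ribosomal protein genes on each of the 24 arrays (points, blue control, orange exposed), with the group mean (line) and SD (bar, n = 3). Exposed nose at 7 days lies at 11.49 to 11.63, below its controls at 11.71 to 11.78, exposed blood at 7 days lies at 12.14 to 12.18, above its controls at 12.01 to 12.09, and the groups overlap at 28 days.

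Rps4y2 was the member called in nose at 7 days. It encodes a form of the small subunit protein eS4, and here it is gene 690845, read by probe set 10859760, with a start on chromosome 4 in the reference. It is dim for this family: its mean over all 24 arrays was 7.23, where the median over members was 11.74. Its levels were 8.39, 8.45 and 8.40 in control nose and 7.86, 8.24 and 8.15 in exposed nose. The groups did not overlap, with exposed replicate 1 the lowest, and the difference was -0.33 ± 0.10 with a limma adjusted p = 0.0447. Leaving out 1 array at a time ended the call in 5 of 6 cases, all but exposed replicate 2, and the adjusted p then ran from 0.0357 to 0.187. It was also lost with quantile normalization (limma adjusted p = 0.0785), with median centring (0.0536) and with the replicate block (0.0731). The call was lost too with no filter on dim probe sets and in the fit on the 6 arrays compared alone. Rps4y2 was thus not among the 12 members that passed in that fit. Over 9 alternatives that kept every array, its result was the same in 4 and weaker in 5. The filter at the median removed its probe set, so that setting did not test it.

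The next smallest p-values in nose at 7 days belonged to large and small subunit genes that did not pass. Rpl6, a large subunit protein, stood at 11.84, 11.75 and 11.75 in controls and 11.30, 11.54 and 11.55 in exposed arrays, -0.32 ± 0.11 with a limma adjusted p = 0.0705. Rps26, which contacts the messenger where it leaves the small subunit, stood at 11.93, 11.88 and 11.89 against 11.60, 11.74 and 11.75, -0.20 ± 0.07 with adjusted p = 0.0733 by limma. Rps13 differed by -0.31 ± 0.11, from 10.30 ± 0.06 (SD, n = 3) in controls to 9.99 ± 0.10. In each of these the exposed arrays lay below all controls. Rps10, a protein of the small subunit beak where collided ribosomes are marked, had the largest difference, -0.49 ± 0.19 with a limma adjusted p = 0.109, from 12.13, 12.28 and 12.00 in controls to 11.50, 11.70 and 11.74 in exposed arrays.

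The members of known special roles lay in the same range. Rplp0, Rplp1 and Rplp2 form the stalk that recruits elongation factors, and they differed by -0.13 ± 0.09, -0.25 ± 0.12 and -0.15 ± 0.09 in nose at 7 days. Rpsa, also known as a laminin receptor, stood at 11.13, 11.01 and 11.04 in controls and 10.66, 10.87 and 11.02 in exposed arrays, which overlapped. Rpl5 and Rpl11, which carry 5S RNA and restrain Mdm2, differed by -0.16 ± 0.11 and -0.09 ± 0.16, with overlapping arrays. Rps6, the substrate of S6 kinases, differed by -0.12 ± 0.16. The 15 genes tested whose human counterparts are mutated in Diamond-Blackfan anaemia had a median of -0.16, and the 7 of the messenger channel and beak had a median of -0.21. None of these members passed the test.

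Markers of other cells moved in nose over the same 7 days. Of 19 olfactory genes 8 were higher and none lower, with a summed intensity of 16528 to 39023 on control and 65932 to 80209.7 on exposed arrays. Of 12 endothelial genes 11 were lower, with sums of 10004 to 12234 against 5722 to 7561, and 11 of 13 monocyte genes were lower. Of all probe sets 8.43% were called higher and 7.84% lower. The sums of monocyte, B cell, T cell, NK cell, neutrophil, red cell and platelet genes on exposed arrays also lay below all controls. Those of respiratory epithelium overlapped, at 32511 to 34643.5 on control and 30143 to 33476 on exposed arrays. Exposed replicate 1 had both the highest olfactory sum and the lowest ribosomal protein mean. Their part in the result was not tested.

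After 28 days the members in nose no longer lay on 1 side. Of 68 tested, 44 were below 0 and 24 above, with a median of -0.03 beside 0.01 over all probe sets. This median was 0.0052 without control replicate 1, -0.11 without control replicate 2, -0.08 without exposed replicate 1 and -0.02 without exposed replicate 2. None was called, where 0.00456% of all probe sets were. Exposed arrays lay below all controls in 17 members (25%), against 8.7% of all probe sets, and above them in 0, against 7.48%. Array means were 10.82, 10.61 and 10.81 in controls and 10.73, 10.63 and 10.68 in exposed nose, which overlapped.

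Control replicate 1 of this group stood apart. Its summed olfactory intensity was 4654, while the other 2 controls had 27672 and 24993 and the exposed arrays 27173 to 34690. Without it limma called 11 members, 7 higher and 4 lower in exposed nose, where no other array left out gave a call. In that fit 2.12% of all probe sets were called higher and 2.81% lower. Higher were Rpl13, Rpl14, Rpl21, Rpl34, Rps2, Rps23 and Rps28, and lower were Rpl36, Rpl36a, Rps10 and Rps14. The arrays of the other groups enter that fit unchanged. Exposed arrays lay below all controls in the sums of monocyte (2994 to 3249 against 3729 to 4925), neutrophil (1417 to 1503 against 1727 to 1862) and endothelial genes (3694 to 4050.1 against 4257 to 5457), with no single gene called. They did so in the sums of T cell genes as well (2252 to 2292 against 2306 to 2533). The part of these cells in the result was not tested.

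The spread of the 28 day controls is seen gene by gene. Rps10 stood at 11.53, 11.98 and 12.27 in control nose and 10.72, 11.31 and 10.85 in exposed nose, a difference of -0.97 ± 0.19 with a limma adjusted p = 0.105. The 3 exposed arrays lay below all controls, and without control replicate 1 the difference was -1.17 ± 0.17 with adjusted p = 0.00965 by limma. Rpl36a, a large subunit protein near the site where the emptied tRNA leaves, stood at 11.17, 11.80 and 12.13 in controls and 10.98, 11.02 and 10.99 in exposed arrays. The exposed arrays were alike and the controls ran over a range of about 1 unit, so that -0.71 ± 0.19 had a limma adjusted p = 0.135, and -0.98 ± 0.10 without control replicate 1 had 0.00252. Rpl36 showed the same form, at 11.94, 12.36 and 12.59 against 11.88, 11.72 and 11.75, a difference of -0.52 ± 0.13.

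Rpl9, near the stalk base of the large subunit, differed by -0.29 ± 0.09 in nose at 28 days, with exposed arrays at 10.64, 10.66 and 10.64 and controls at 10.82, 10.83 and 11.14. Rps14, the small subunit gene lost in the 5q- syndrome of the bone marrow, differed by -0.43 ± 0.13, with exposed arrays at 10.15, 9.94 and 10.13 and controls at 10.21, 10.50 and 10.79. Neither pair of groups overlapped, and neither passed. Rps28 went the other way, from 11.38, 10.83 and 10.54 in controls to 11.73, 11.22 and 11.44 in exposed arrays, 0.55 ± 0.19 with a limma adjusted p = 0.214 and with overlap.

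Rpl13 had the largest difference above 0 at 28 days in nose, 0.88 ± 0.29, with controls at 10.46, 8.90 and 9.47 and exposed arrays at 10.59, 10.39 and 10.49. Its probe set stood alone in this: over the 6 other probe sets of the gene the difference ran from -0.08 to 0.00. The probe sets of Rpl13 disagree, and the value of the chosen one is uncertain. Of the 52 members with more than 1 probe set in nose, all probe sets of a gene had 1 sign in 50 at 7 days and in 42 at 28 days.

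**Figure D2:**
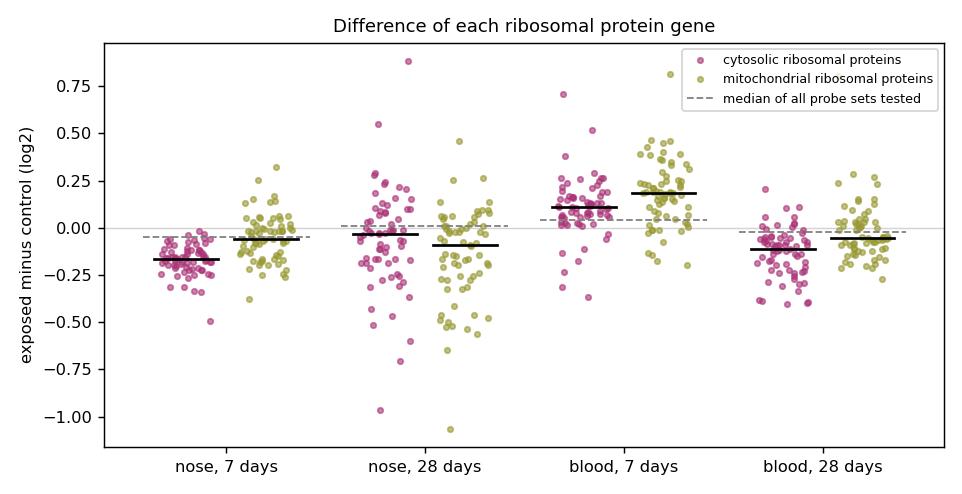
Exposed minus control difference (log2) of each cytosolic (purple) and mitochondrial (olive) ribosomal protein gene in the 4 comparisons, with the list median (black line) and the median of all probe sets tested (dashed). Cytosolic members have medians of -0.16 in nose and 0.11 in blood at 7 days, and -0.03 and -0.11 at 28 days, and they spread from -0.97 to 0.88 in nose at 28 days.

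In blood at 7 days the members lay mostly higher. Of 69 members 61 were above 0, with a median of 0.11, beside 62.0% above 0 and a median of 0.04 over all probe sets. None was called, where 0.475% of all probe sets were (0.11% higher). Exposed arrays lay above all controls in 39 of 69 members (56.5%), against 19.5% of all probe sets, and below them in 2, Rps9 and Rpl41, against 10.4%. The array means were 12.09, 12.04 and 12.01 in controls and 12.18, 12.14 and 12.14 in exposed blood, without overlap. Among 905 probe sets outside the family as bright as the brighter members, at or above 11.22 in blood, 57.6% were above 0 with a median of 0.02.

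Rps26 and Rpl36a came nearest to the threshold in blood at 7 days. Rps26 stood at 12.15, 12.01 and 12.00 in controls and 12.43, 12.46 and 12.42 in exposed blood, 0.38 ± 0.09 with a limma adjusted p = 0.0702. Rpl36a stood at 12.75, 12.28 and 12.15 in controls and 13.08, 13.12 and 13.11 in exposed blood, 0.71 ± 0.17 with adjusted p = 0.0769 by limma. In both the exposed arrays were close together and above every control. Without control replicate 1 Rpl36a passed, with 0.89 ± 0.16 and a limma adjusted p = 0.0466, and 0.233% of all probe sets were then called higher.

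Other small subunit genes had the same form in blood. Rps19, the gene most often mutated in Diamond-Blackfan anaemia, a failure of red cell formation, stood at 11.92, 11.54 and 11.41 in controls and 12.15, 12.14 and 12.13 in exposed blood, 0.52 ± 0.20 with a limma adjusted p = 0.247. Rps16, at the site where initiator tRNA is held, differed by 0.27 ± 0.09. Rps15, whose tail reaches the decoding site, differed by 0.22 ± 0.09. Exposed arrays lay above all controls in these 3 genes and none passed. The stalk genes Rplp0, Rplp1 and Rplp2 differed by 0.02 ± 0.09, 0.13 ± 0.09 and 0.13 ± 0.08, Rpsa by 0.17 ± 0.15, Rps6 by 0.17 ± 0.10, Rpl11 by 0.12 ± 0.13 and Rpl5 by -0.03 ± 0.08.

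Cell markers in the same blood samples moved as follows. Red cell genes were lower in 3 of 16, with summed intensities of 95604 to 120013 in controls and 70674 to 83297 in exposed blood. NK cell genes were higher in 2 of 9, with sums of 20644 to 25203 and 32459 to 34699. T cell sums, 44104 to 51679 and 46720.1 to 53130.4, overlapped. The part of these cells in the result was not tested.

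At 28 days the direction in blood was the other one. Of 69 members 59 were below 0 with a median of -0.11, beside 55.8% and -0.02 over all probe sets. Without exposed replicate 2 the median was -0.03 and without control replicate 3 -0.05, and it was -0.17 without control replicate 2 or without exposed replicate 1. None was called, where 5.27% of all probe sets were (3.95% higher, 1.31% lower). Exposed arrays lay below all controls in 3 members, Rpl5, Rpl23 and Rpl32, against 9.03% of all probe sets, and above them in 1, Rpl31, against 8.77%. Array means were 11.29, 11.12 and 11.42 in controls and 11.30, 11.00 and 11.14 in exposed blood, so the groups overlapped and the shift was no larger than the spread between arrays.

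Control replicate 2 of blood at 28 days stood apart in its granulocyte content: its summed neutrophil intensity was 14860 (14859.8), while the other 2 controls had 3453 and 3387 and the exposed arrays 2182 to 2963. Without it limma called 8 members lower in exposed blood, all of the small subunit: Rps3, Rps9, Rps10, Rps15a, Rps21, Rps23, Rps28 and Rpsa. In that fit 0.908% of all probe sets were called lower. Leaving out exposed replicate 1 called Rps3 alone, and the other 4 arrays none. NK cell sums were 14028 to 16142 in controls and 19806 to 25810.2 in exposed blood, and 7 of 9 NK cell genes were higher. Platelet sums were 27293 to 32674 and 38169 to 44636, and 4 of 8 platelet genes were higher. Their part in the result was not tested.

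Rps3, which lines the entry of the messenger channel and also takes part in DNA repair, had the smallest p in blood at 28 days. It stood at 11.86, 11.52 and 11.95 in controls and 11.63, 11.14 and 11.38 in exposed blood, which overlapped, -0.39 ± 0.13 with a limma adjusted p = 0.114. Rpl32 differed by -0.23 ± 0.08, Rpl5 by -0.22 ± 0.08, Rps23, of the decoding site, by -0.39 ± 0.15 and Rps28 by -0.40 ± 0.15, and none passed. Without control replicate 2 the difference was -0.52 ± 0.12 for Rps3 and -0.58 ± 0.11 for Rps23, with limma adjusted p-values of 0.0385 and 0.0185. The stalk genes Rplp0, Rplp1 and Rplp2 differed by -0.09 ± 0.09, -0.05 ± 0.09 and -0.15 ± 0.08, Rpl11 by -0.27 ± 0.13, Rps6 by -0.18 ± 0.10 and Rpsa by -0.30 ± 0.15.

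By role, the members were as follows, with no test of a group against the family. The 8 genes of the exit tunnel were all above 0 in blood at 7 days with a median of 0.11, and 5 of 8 were below 0 at 28 days with a median of -0.02. The 7 genes of the messenger channel and beak had medians of 0.12 and -0.21 in blood at these days. The 16 Diamond-Blackfan genes had medians of 0.10 and -0.18. In nose at 28 days the exit tunnel genes had a median of -0.18 with 6 of 8 below 0, and the 3 stalk genes one of -0.16 with all below 0. No member of these groups passed.

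The change of the effect from 7 to 28 days was tested within each tissue. In blood 65 of 69 members were below 0, including all 27 of the small subunit, with a median of -0.22 beside -0.06 over all probe sets. None was called, where 0% of all probe sets were. Rps26 had the smallest p, -0.57 ± 0.13 with a limma adjusted p = 0.123, followed by Rpl36a at -0.74 ± 0.24 and Rpl23 at -0.49 ± 0.17. In nose 45 of 68 were above 0 with a median of 0.12 beside 0.05, and none was called, where 0.1% of all probe sets were. Without nose 28 day control replicate 2 the median was 0.05, that of all probe sets. Rpl14 at 0.47 ± 0.16, Rps28 at 0.73 ± 0.27 and Rpl13 at 1.05 ± 0.41 had the smallest p in nose. The other probe sets of Rpl13 gave only 0.16 to 0.28. Without the control replicate 1 of nose at 28 days 11 members passed in nose, 9 higher and 2 lower, where 6.25% of all probe sets were higher and 5.84% lower.

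The difference of the effect between the tissues had 1 direction in most members at 7 days. Of 68 members tested in both tissues 65 had a lower value in nose than in blood, with a median of -0.25 beside -0.09 over all probe sets. The test called 5 of 68, all lower in nose, where 5.65% of all probe sets were lower and 10.8% were called either way, so the share called lay near that of all probe sets. Rps26 had the smallest p of them, -0.58 ± 0.11 with a limma adjusted p = 0.00355. Rpl6 differed by -0.58 ± 0.15 with adjusted p = 0.0191 by limma. Rpl36a differed by -0.90 ± 0.26, Rpl9 by -0.48 ± 0.15 and Rps4y2 by -0.42 ± 0.13, with limma adjusted p-values of 0.0325, 0.0416 and 0.0470.

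These 5 genes held their call to different degrees when 1 of the 12 arrays compared was left out. Rps26 passed in 12 of 12 fits, Rpl6 in 9, Rpl36a in 4, Rps4y2 in 2 and Rpl9 in 1. All 6 probe sets of Rps26 tested passed as well, at -0.70 to -0.57. Of the 9 of Rpl9 4 passed and of the 3 of Rpl6 2, while Rps4y2 has a single probe set. Fitted on the 12 arrays compared alone, 38 of the 68 members passed, all lower in nose, where 17.5% of all probe sets were lower.

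**Figure D3:**
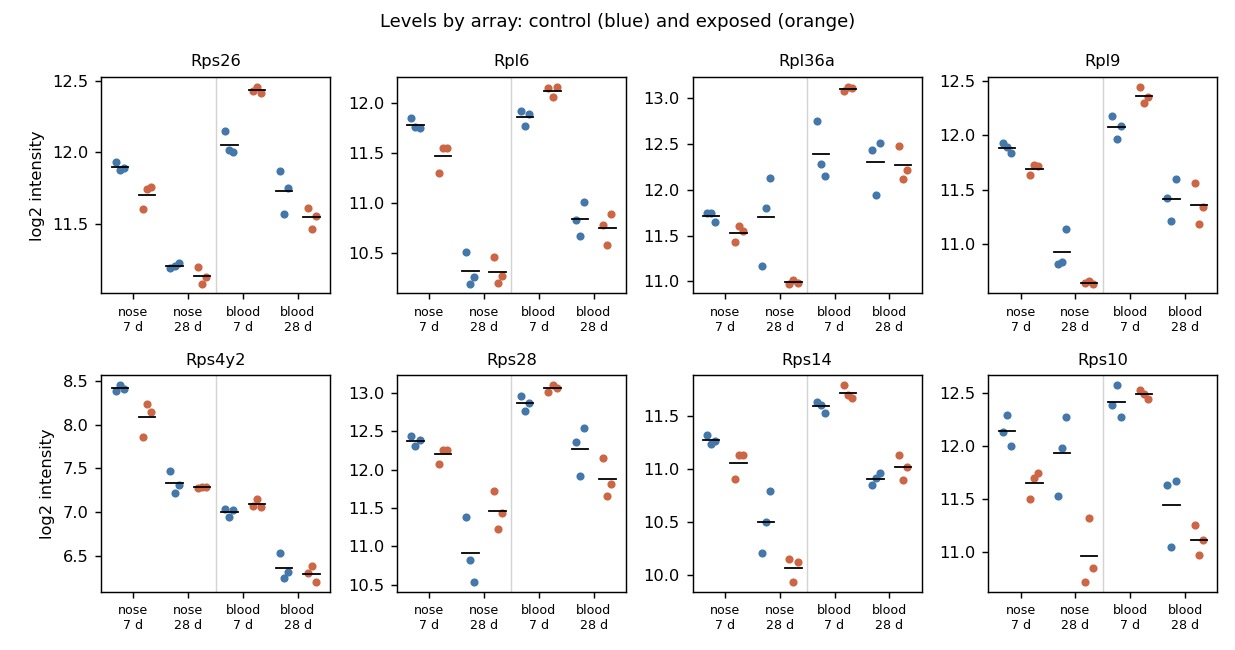
Log2 intensity of 8 members on every array (points, blue control, orange exposed), with group means as lines, in nose (left of the grey line) and blood (right). Rps26 and Rpl6 lie lower in exposed nose and higher in exposed blood at 7 days without overlap, and Rpl36a, Rps28, Rps14 and Rps10 show the wide spread of nose controls at 28 days.

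At 28 days 2 of 68 members differed between the tissues, where 5.1% of all probe sets did (2% higher, 3.11% lower). Rps28 was higher in nose, 0.94 ± 0.25 with a limma adjusted p = 0.0340, from 0.55 in nose and -0.40 in blood. Rps14 was lower in nose, -0.54 ± 0.16 with adjusted p = 0.0482 by limma. Of the 3 probe sets of Rps14 only this 1 passed, the others lying at -0.46, while 2 of 2 passed for Rps28. Rps28 passed in 5 and Rps14 in 2 of the 12 fits without an array, and without nose control replicate 1 the count was 14, 9 higher and 5 lower, where 7.18% of all probe sets were higher and 5.59% lower. The median over members was 0.08 beside 0.04, and it ran from 0.0096 without nose control replicate 2 to 0.15 without blood control replicate 2.

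Signs of the effects can be set side by side over the 68 members tested in both tissues. At 7 days 61 of 68 (89.7%) were below 0 in nose and above 0 in blood, where 38.1% of 20096 probe sets were. Between days in blood 52 of 68 (76.5%) were above 0 at 7 and below 0 at 28 days, where 31.4% of all probe sets were. The genes share their arrays, so the 68 signs are not independent.

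Members deviated together within groups as well. For each pair of members the correlation of deviations from the group means was taken over the 6 arrays of a tissue and day, with 2346 pairs that share arrays and scaling. The median r was 0.76 in nose at 7 days, 0.35 in nose at 28 days, 0.29 in blood at 7 days and 0.75 in blood at 28 days. Over the mitochondrial ribosomal protein genes it was 0.25, 0.12, 0.40 and 0.52 in that order. Over 85 genes of ribosome biogenesis it was 0.20, 0.38, 0.51 and 0.66, higher than over the members in nose at 28 days and in blood at 7 days. In nose at 7 days exposed replicate 1 was low for most members, and in blood at 28 days the replicates 2 of both groups were.

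**Figure D4:**
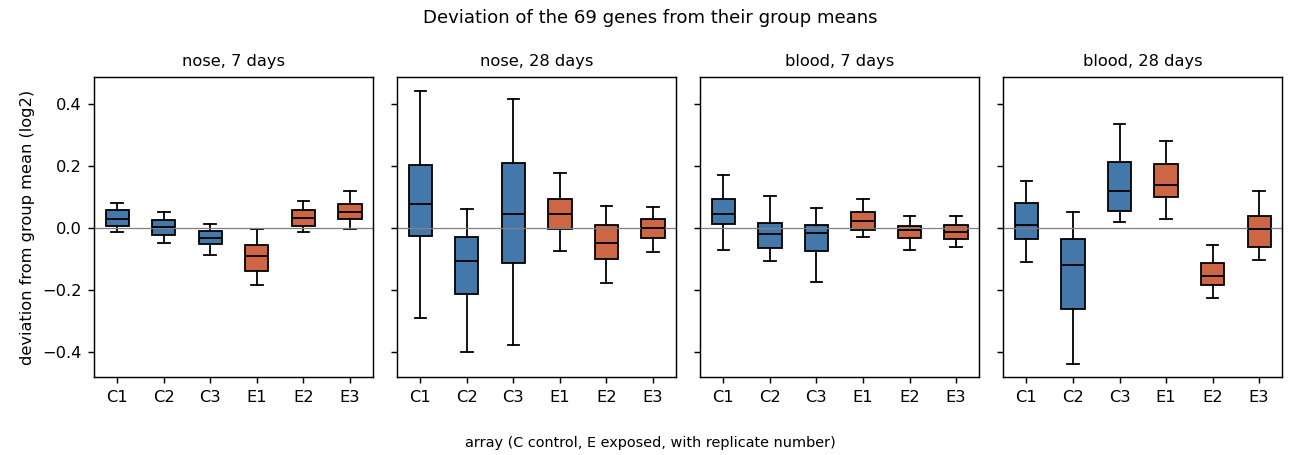
Deviation of the 69 genes from their group mean (log2) on each array, as boxes of the middle of the distribution with the median and whiskers from percentile 5 to 95 (C control, blue; E exposed, orange; with the replicate number). The boxes are narrow in nose and blood at 7 days, wide for C1 and C3 of nose at 28 days, and shifted away from 0 for most arrays of blood at 28 days.

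Single members varied unlike the rest. Rps29 had the lowest SD between arrays of a group, 0.04 in nose and 0.04 in blood, with levels of 13.50 to 13.61 on the 6 nose arrays of 7 days. Rpl13 had the highest SD in nose, 0.40, and Rps27 in blood, 0.33. Rps27, a small subunit protein, stood at 7.79, 8.27 and 7.58 in control blood and 7.51, 7.59 and 7.44 in exposed blood at 7 days. Rpl41, the shortest of the ribosomal proteins, stood at 12.41, 12.74 and 12.40 in control blood at 28 days and 12.72, 12.70 and 12.73 in exposed blood, a difference of 0.20 ± 0.09 where most members lay below 0. Neither difference passed.

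Unexposed nose and blood differed more than exposed and control arrays did. At 7 days 40 of 68 members were lower in nose and 3 higher, with a median of -0.31, where 16% of all probe sets were lower, 58.7% higher, 74.7% either and the median was 0.41. At 28 days 54 were lower and 3 higher with a median of -0.53, where 25.8% were lower, 45.4% higher, 71.3% either and the median was 0.20. Nose arrays lay below all blood arrays in 55 members at 7 days (19.3% of all probe sets) and in 48 at 28 days (23.2%). The comparison depends on the scaling, since centring each array on its median moves the median of all probe sets at 7 days to -0.41 and gives 67 members lower and 1 higher. Mitochondrial ribosomal protein genes had the other direction as deposited, with 60 of 68 higher at 7 days and 44 at 28 days. Among 602 other probe sets as bright as the brighter members in both tissues the median was -0.15 at 7 days and -0.49 at 28 days, and that of the 50 members in this range -0.25 and -0.52.

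The largest members lower in unexposed nose at 7 days were of both subunits. Rpl22, a protein that also binds viral and cellular RNA and is required by developing T cells, stood at 10.07, 9.93 and 9.94 in nose and 10.54, 10.99 and 11.21 in blood, -0.94 ± 0.19 with a limma adjusted p = 0.000135. Rps19 differed by -0.77 ± 0.18, Rps12 by -0.72 ± 0.17, Rpl36a and Rps9 by -0.68 (SE 0.19 and 0.12), and Rps3 by -0.66 ± 0.11. At 28 days Rps28 differed by -1.36 ± 0.18, Rps19 by -1.27 ± 0.18, Rplp2 by -1.19 ± 0.08, Rps3 by -1.18 ± 0.11, Rpl13 by -1.12 ± 0.23 and Rpl14 by -1.10 ± 0.11. The other probe sets of Rpl13 ran from -0.95 to -0.66. In Rps19 and Rps3 the nose arrays lay below all blood arrays at both days.

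Few members were higher in nose. Rps4y2 stood at 8.39, 8.45 and 8.40 in nose and 7.04, 6.95 and 7.03 in blood at 7 days, and at 7.47, 7.22 and 7.31 against 6.54, 6.25 and 6.32 at 28 days. It was the largest, at 1.41 ± 0.09 and 0.96 ± 0.09, and stayed higher under each scaling tried. Its levels in this blood lay below the array medians, which averaged 7.46 at 7 days and 6.87 at 28 days. Rpl36 was higher by 0.37 at 7 and 0.72 at 28 days, Rpl27 by 0.26 at 7 days and Rps10 by 0.48 at 28 days. With median centring Rpl36 and Rpl27 at 7 days turned to -0.44 and -0.55, and Rps10 at 28 days to -0.040. Leaving out 1 of the 6 arrays compared ended the call of Rpl27 in 6 of 6 cases, that of Rpl36 at 7 days in 4 and that of Rps10 in 3, and that of Rps4y2 in none at either day.

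**Figure D5:**
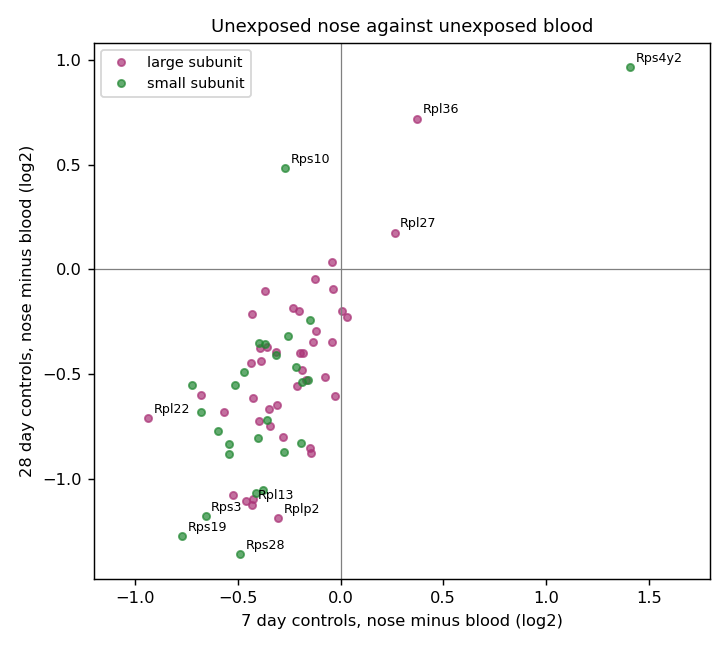
Difference between unexposed nose and blood (log2) at 7 days (x axis) and 28 days (y axis) for 68 members of the large (purple) and small (green) subunit. Most lie below 0 at both days, Rps4y2 at 1.41 and 0.96 lies farthest above, and Rps28, Rps19 and Rplp2 lie lowest at 28 days.

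Genes that build or serve the ribosome were followed in the same fits. Over all probe sets, 7.84% were called lower and 8.43% higher in nose at 7 days. In nose at 7 days 3 of 85 ribosome biogenesis genes fell and none rose, with a median of -0.12 and 74 below 0. They were the helicase Ddx47 (-0.32 ± 0.09), the nucleolar Gnl3, or nucleostemin (-0.37 ± 0.11), and Noc4l (-0.40 ± 0.12), with limma adjusted p-values of 0.0414, 0.0415 and 0.0451. Polr1d, a subunit shared by RNA polymerases I and III, fell by 0.35 ± 0.09, 1 of 13 genes of rRNA transcription. Of 34 mTORC1 and Myc genes Mlx fell by 0.29 ± 0.08 and Eif4ebp1, the translation repressor that mTORC1 switches off, by 0.47 ± 0.14.

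Translation factors moved singly in nose at 7 days, where 8.43% of all probe sets were called higher and 7.84% lower. Of 34 initiation factors Eif4e3, a cap binding protein, rose by 0.72 ± 0.14 and Eif6, which keeps the subunits apart, fell by 0.33 ± 0.07. Eef1a2, the elongation factor of neurons and muscle, rose by 1.54 ± 0.30 with a limma adjusted p = 0.0103, 1 of 9 elongation factors. Of 18 other messengers with the tract none passed, and 15 were below 0 with a median of -0.10. Of 68 mitochondrial ribosomal protein genes none passed, and 48 were below 0 with a median of -0.06. At 28 days in nose no gene of these lists passed.

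In blood the same lists held few calls, where 0.475% of all probe sets were called at 7 days and 5.27% at 28 days. Eif4g3, a scaffold of the cap complex, fell by 0.70 ± 0.13 at 7 days and by 0.53 ± 0.13 at 28 days, with limma adjusted p-values of 0.0414 and 0.0321, and it was the only initiation factor of 34 to pass at either day. At 28 days Eif4ebp2 fell by 0.55 ± 0.13, Lamtor2, which holds mTORC1 at the lysosome, fell by 0.53 ± 0.13, and Mrps18c rose by 0.80 ± 0.21. Ribosome biogenesis genes had no call, with 70 of 85 above 0 at 7 days (median 0.14) and 63 below 0 at 28 days (median -0.07). Mitochondrial ribosomal protein genes were above 0 in 58 of 68 at 7 days (median 0.18).

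The difference between the tissues at 7 days was called in both directions in these lists, where 5.65% of all probe sets were lower and 5.1% higher. Of 85 ribosome biogenesis genes 8 were lower in nose than in blood and none higher, 81 were below 0 and the median was -0.27. Ddx47 differed by -0.73 ± 0.15, Nob1, which trims the RNA of the small subunit, by -0.51 ± 0.13, and Bysl by -0.42 ± 0.12. Of 68 mitochondrial ribosomal protein genes 6 were lower, 60 were below 0 and the median was -0.20. The 3 -like relatives Rpl22l1, Rpl36al1 and Rpl37l1 were below 0, and Rpl36al1 passed at -0.45 ± 0.14 with a limma adjusted p = 0.0396. Of 34 initiation factors Eif4g3 was higher in nose (0.70 ± 0.16) and Eif6 (-0.43 ± 0.12) and Eif2b1 (-0.41 ± 0.13) lower. Of 9 elongation factors Eef1a2 (1.37 ± 0.32) and Eef2k, the kinase that inhibits elongation factor 2 (0.58 ± 0.18), were higher. Of 34 mTORC1 and Myc genes Castor2, an arginine sensor relative (0.68 ± 0.15), was higher and Mlx (-0.70 ± 0.15) lower. Of 13 genes of rRNA transcription Polr1d was lower (-0.52 ± 0.12).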

How the data were processed

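Messenger RNA was measured in 24 samples, 12 of nose and 12 of blood, grouped by their titles. The authors deposited 1 normalised intensity per probe set and array on a linear scale for 29214 probe sets. Per the submitters' processing notes the software was Partek. Its version, the background correction and the normalisation method were, in the sources used here, not given. The platform annotation gave 1 symbol for 15310 probe sets and several for 323, and did not list 13581.

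Values were put on the log2 scale without further normalisation, and the dimmest probe sets, with a tissue mean under percentile 25, were left out, which kept 21910 per tissue and 20096 in common. Models were fitted with limma 3.58.1 in R 4.3.3, on 12 arrays within a tissue and on all 24 between tissues, with 1 mean per group and 3 arrays per group (lmFit, contrasts.fit, eBayes). Tests were two-sided, with Benjamini-Hochberg adjustment over all probe sets kept and a threshold of 0.05. The fit was tested on simulated data. Lists were described by counts and medians beside all probe sets, with no set test.

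The members and lists were chosen with earlier results of these data known. Members with values were those called, or else those with the smallest p, with the stalk genes, Rpsa, Rpl5, Rpl11 and Rps6; Rpl13, Rps27 and Rps29 by their SD; in unexposed nose against blood the largest differences in each direction. Rps28 and Rpl13 in nose at 28 days and Rpl41, Rps9 and Rpl31 in blood were chosen after their values were seen, as was the comparison with bright probe sets. The 250 probe sets of the members numbered up to 21 for 1 gene, and 15 repeated the values of another probe set, so a probe set may read near-identical copies.

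Same-numbered control and exposed arrays had correlations of deviations from group means of -0.30 to 0.19 over 12 pairs. The labels state no pairing. In nose at 28 days the 3 pairs had 0.13 to 0.19, above the limit of 0.1 for taking the numbers as pairs in that comparison, and the replicate block was an alternative throughout. Other alternatives were the filter, the scaling, the prior, the arrays in the fit, the mean of a gene's probe sets, the -like genes, the threshold and each array left out. Promoter windows are RefSeq's, build GRCr8. Figures were drawn with matplotlib 3.10.9.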

Additional observations from a re-analysis of the deposited data

Results flagged for a closer look

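The response to exposure differed between nose and blood, by limma's test of that difference over all 24 arrays, for 7 members. These were 5 of 68 (7.35%) at 7 days, where 10.8% of all probe sets were called, and 2 of 68 (2.94%) at 28 days, where 5.1% were. At 7 days the difference of the effects, nose minus blood, was -0.90 for Rpl36a, -0.58 for Rpl6, -0.48 for Rpl9, -0.58 for Rps26 and -0.42 for Rps4y2. At 28 days it was -0.54 for Rps14 and 0.94 for Rps28. For Rps26 the exposed arrays lay below all controls in nose and above all controls in blood, and this gene alone passed in each fit that left out 1 of the 12 arrays. The nose controls at 28 days had an olfactory content of 4654 to 27672 in summed intensity, and its part in the 2 differences was not tested. Leaving out an array of nose or of blood could end these calls: Rps28 passed in 5 and Rps14 in 2 of 12 such fits.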

How the results depend on the processing

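Of 200 recomputed counts and medians that kept every array, 178 stayed within their limits of change and 22 moved. The members called in nose at 7 days, 1 in the report, numbered 0 with no filter, with the filter at the median (66 members tested, Rps4y2 not among them), with quantile normalization and with median centring, 12 with only the arrays compared and 4 at an adjusted p under 0.1. In blood at 7 days, 0 in the report, they numbered 1 with quantile normalization, 1 with only the arrays compared and 2 at 0.1. For the difference of effects between tissues at 7 days, 5 in the report, they numbered 3 with median centring and 38 with only the arrays compared. At 28 days, 2 in the report, they numbered 0 with no filter and with only the arrays compared, 1 with median centring, 1 with the mean of a gene's probe sets and 5 at 0.1. In unexposed nose against blood at 7 days, 43 in the report, they numbered 68 with median centring, where the median was -1.13. At 28 days the median was -0.32 with quantile normalization and -1.05 with median centring. Signs turned for Rpl36 (-0.44) and Rpl27 (-0.55) at 7 days and Rps10 (-0.040) at 28 days with median centring, and for Rpl10 at 28 days (0.041) with quantile normalization, as these settings shift all probe sets. With the replicate block the counts were 0 in nose at 7 days and 1 for the tissue difference at 28 days, it moved no other count by over 1.5 times, and the numbers are not stated to pair arrays.

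Leaving out 1 array at a time, the counts ran from 0 to 1 in nose at 7 days (1 without exposed replicate 2), from 0 to 11 in nose at 28 days (11 without control replicate 1), from 0 to 1 in blood at 7 days (1 without control replicate 1) and from 0 to 8 in blood at 28 days (8 without control replicate 2, 1 without exposed replicate 1). They ran from 0 to 11 for the change between days in nose (11 without nose 28 day control replicate 1). For the tissue difference at 7 days they ran from 1 to 5, with 1 without nose control 1, nose exposed 1 or blood control 2, 2 without nose control 2, blood control 3 or any exposed blood array, and 3 without nose control 3. For that at 28 days they ran from 0 to 14, with 14 without nose control 1, 0 without nose control 3, nose exposed 1 or 3, blood control 1 or 3 or blood exposed 3, and 1 without nose exposed 2 or blood exposed 2. In unexposed nose against blood they ran from 30 to 38 at 7 days and from 53 to 60 at 28 days. The medians of the members ran from -0.20 to -0.12 in nose at 7 days, -0.11 to 0.0052 in nose at 28 days, 0.10 to 0.13 in blood at 7 days and -0.17 to -0.03 in blood at 28 days. They ran from 0.05 to 0.16 for the change between days in nose and -0.29 to -0.13 in blood (-0.13 without 28 day exposed replicate 2), and from -0.28 to -0.23 and 0.0096 to 0.15 for the tissue difference at 7 and 28 days. Where not named, the cause was not tested. With 3 arrays a group the precision is limited, and signal over background was not analysed here.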
